A study of Sus scrofa with 7 samples.

Results

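The ankyrin repeat and SOCS box (ASB) genes described here are 9 family members transcribed in muscle, namely ASB15, ASB2, ASB4, ASB8, ASB10, ASB11, ASB12, ASB14 and ASB18. They were found by gene symbol in a transcript table of 20654 pig genes, all 9 were present, and each is represented by its most abundant transcript row, judged by the 7-library mean. The set was chosen by family membership, but not by that alone, with the S100a1 against hrLuc fold changes of these libraries already known. It holds 9 of the 18 ASB genes in the table. The fold changes of the 9 genes are therefore a description, with errors but no test. Of the 9 other ASB genes 8 also had enough reads to be tested, so transcription in these libraries does not set the 9 apart. RNA had been sequenced from heart muscle of the anteromidventricular region of male farm pigs, and every animal had undergone infarction by way of the left circumflex (LCX) artery 14 weeks earlier. In 4 pigs, labelled S100a1, an adeno-associated virus of serotype 5 (AAV5) had carried human S100A1, which encodes a calcium-binding protein of heart muscle. In 3 pigs, labelled hrLuc, the same type of vector had carried luciferase, a reporter enzyme. Both groups had thus received a vector and an infarct, and no healthy or untreated heart was analysed here. The labels are silent on the age of the pigs, the promoter of the vector and its route.

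ASB proteins are substrate adaptors of ubiquitin ligases. Their ankyrin repeats bind a target protein, and their SOCS box binds elongin B and elongin C and recruits cullin 5 with the RING protein RNF7, so that the target is marked with ubiquitin, usually for degradation by the proteasome. The ligase is switched on when cullin 5 is modified with NEDD8, a ubiquitin-like protein, by the conjugating enzyme UBE2F. Several family members are transcribed mainly in heart and skeletal muscle, where turnover of cytoskeletal proteins has to follow growth and atrophy. The assay measured the RNA of the adaptors, not their protein or their ligase activity.

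With 1 row per gene the libraries held 28679326 to 38409552 reads, and 15661 genes had enough reads to be tested. Values below are normalized read counts, which are reads divided by a size factor of the library. They are compared between libraries within a gene and not between genes, because transcript lengths were not used. Of 15 cardiomyocyte markers 13 were matched to the table. Their summed level was 4810305 to 5384429 in hrLuc and 4976219 to 6216530 in S100a1. The marker TTN alone was at 2674095 to 3272269 in hrLuc and 2569503 to 3842608 in S100a1, so the sum mainly follows that gene. Pig S100A1 itself was at 7718 ± 1298 (SD, n = 3) in the hrLuc group and 5933 ± 1064 (SD, n = 4) in the S100a1 group. The labels do not say whether reads of the human vector sequence were counted on the pig gene, so it cannot serve as a check of the treatment. In bulk tissue, fewer cells of a type and less RNA per cell cannot be told apart.

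ASB15 was the gene of the set whose groups stood farthest apart relative to their spread. ASB15 was first studied in the skeletal muscle of cattle and rats, where it affects fibre growth and protein turnover. Its normalized count was 5582, 5420 and 5967 in hrLuc replicates 1 to 3. It was 7116, 7594, 7514 and 7751 in S100a1 replicates 1 to 4. Every S100a1 library lay above every hrLuc library, and the means were 5656 ± 281 (SD, n = 3) and 7494 ± 270 (SD, n = 4). The log2 fold change, on the log2(value + 0.5) scale and with its standard error (SE), was 0.41 ± 0.06. With each library left out it lay between 0.38 and 0.45. The gene also had a small spread within groups, with a residual SD of 0.061 on the log2 scale. Of the 1571 genes with a mean count within 2-fold of that of ASB15, 13.6% had a smaller residual SD. Since the set was chosen with this contrast known, that share is a description too. In the authors' deposited table the log2 fold change of ASB15 is 0.41.

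ASB2 and ASB11 were the other genes of the set whose groups did not overlap. ASB2 targets filamins, actin crosslinkers, and in the mouse it is needed for heart development. Its count was 11515, 13293 and 13581 in the hrLuc libraries and 15124, 13588, 14371 and 13780 in the S100a1 libraries. The groups were separated only by the small step from 13581 in hrLuc replicate 3 to 13588 in S100a1 replicate 2. The hrLuc mean was 12796 ± 1119 (SD, n = 3) and the S100a1 mean 14216 ± 691 (SD, n = 4). The log2 fold change was 0.15 ± 0.08 (SE). Without hrLuc replicate 1, the lowest library, it was 0.08.

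ASB11 has been shown in zebrafish to act on Delta proteins of Notch signalling, and in human cells to target the cell death protein BIK. Its count was 1817, 1664 and 1807 in hrLuc and 2005, 2439, 1955 and 1993 in S100a1. The log2 fold change was 0.25 ± 0.09 (SE), and S100a1 replicate 2 stood far above the other libraries of its group. Without that library the log2 fold change was 0.17, and the remaining S100a1 libraries still lay above the highest hrLuc library.

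**Figure D1:**
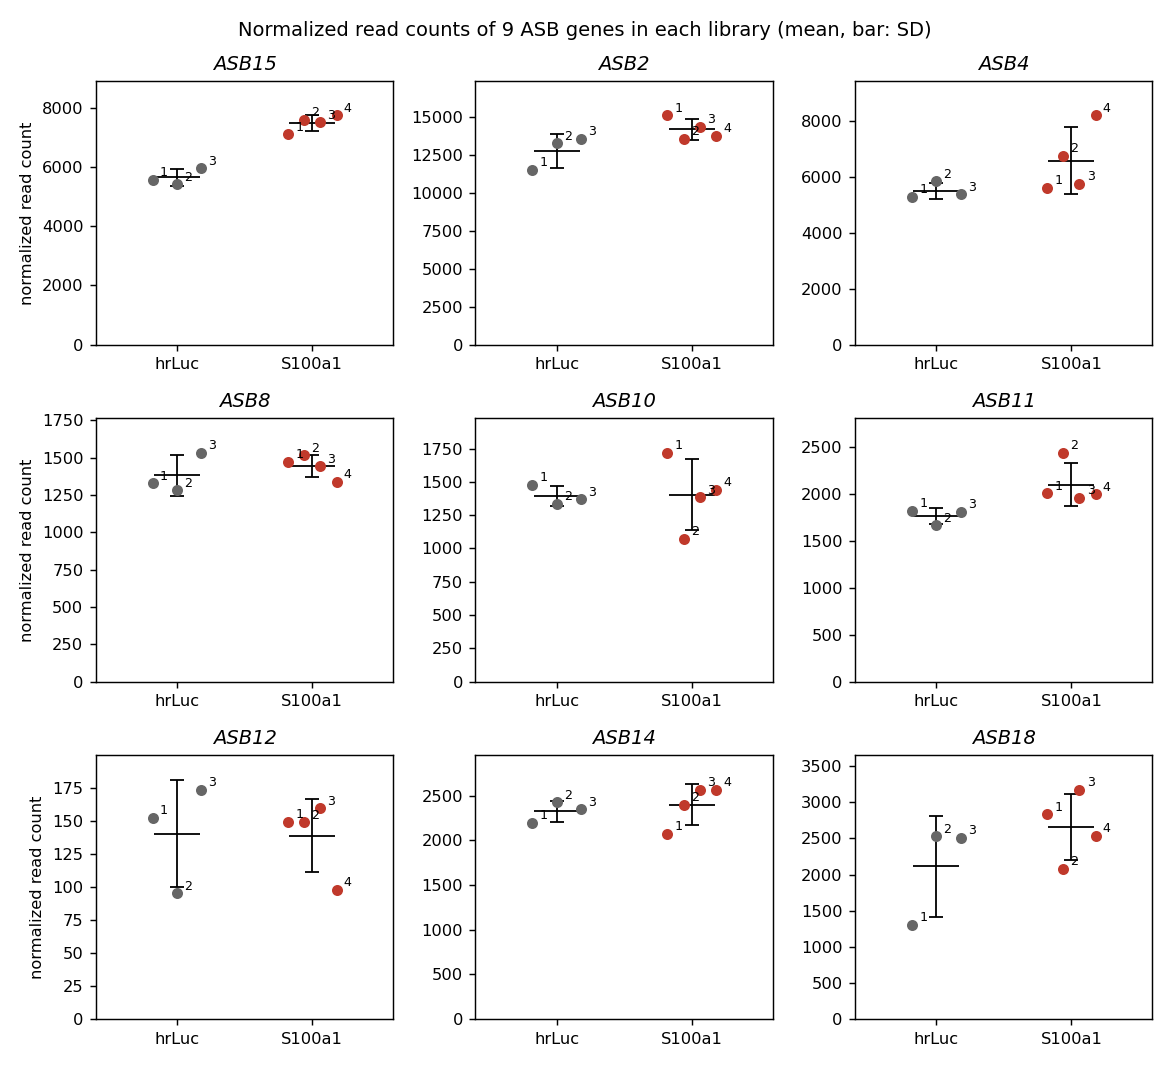
Normalized read count of each of the 9 ASB genes (vertical axes, starting at 0) in the 3 hrLuc libraries (grey) and the 4 S100a1 libraries (red). Numbers beside points are replicate numbers, the long dash is the group mean and the bar its SD. For ASB15 the hrLuc points lie between 5420 and 5967 and the S100a1 points between 7116 and 7751, whereas for ASB10 and ASB14 the S100a1 points spread around the hrLuc points and for ASB12 they lie inside the hrLuc range.

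Groups that did not overlap, with S100a1 higher, were found for 3 of the 9 genes, and over all genes tested the share was 3.96%. None of the 9 was in the opposite arrangement, against 5.31% of all genes. At an adjusted p under 0.05, limma, a linear model fitted across all genes, called 0 of the 9 genes and 0.0128% of all genes, and at an unadjusted p under 0.05 it had 2 of the 9 and 8.26% of all genes. On recovered whole reads edgeR called 0 of the 9 beside 0.0128% of all genes, and limma-voom called 0 of the 9 beside 0% of all genes. DESeq2 called 1, ASB15, beside 0.345% of all genes called as higher. In the authors' deposited table ASB15 was likewise the 1 gene of the set with an adjusted p under 0.05, beside 0.333% of all genes as higher. Since the set was chosen with this contrast known, these counts are not evidence about the set.

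ASB4 and ASB18 had higher means in S100a1 but groups that overlapped. ASB4, known from endothelial and placental vessel differentiation in the mouse, had counts of 5277, 5837 and 5378 in hrLuc and 5618, 6757, 5762 and 8197 in S100a1. The highest value, in S100a1 replicate 4, carried much of the difference. The log2 fold change was 0.24 ± 0.13 (SE), and it was 0.13 without that library. ASB4 overlaps PDK4, which encodes a kinase that shuts off pyruvate dehydrogenase, on chromosome 9, so the genes can share reads. PDK4 was at 631 ± 108 (SD, n = 3) in the hrLuc group and 1129 ± 323 (SD, n = 4) in the S100a1 group. Its highest value, 1484, was in S100a1 replicate 1, where ASB4 was the lowest of its group. Whether shared reads bear on ASB4 was not tested.

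ASB18 was the most variable gene of the set. Its count was 1306, 2532 and 2508 in hrLuc and 2834, 2083, 3176 and 2540 in S100a1. One library, hrLuc replicate 1, held fewer counts than any other, and the remaining hrLuc values lay inside the S100a1 range. The log2 fold change was 0.38 ± 0.24 (SE) with all libraries and 0.06 without hrLuc replicate 1. The residual SD was 0.40 on the log2 scale, and 97.8% of the 3812 genes with a mean within 2-fold of that of ASB18 had a smaller one.

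ASB8, ASB10, ASB12 and ASB14 had group means within the spread between libraries. ASB8 ran from 1281 to 1535 in hrLuc and from 1340 to 1516 in S100a1, with a log2 fold change of 0.07 ± 0.08 (SE). ASB10, variants of which have been linked to glaucoma in humans, ran from 1334 to 1479 in hrLuc and from 1070 to 1720 in S100a1. The hrLuc range of ASB10 thus lay inside that of S100a1, and its log2 fold change was -0.01 ± 0.14 (SE).

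ASB12 had the fewest reads of the set, 89 to 194 per library. It ran from 95.2 to 174 in hrLuc and from 97.8 to 160 in S100a1, with a log2 fold change of 0.01 ± 0.25 (SE), and leaving out single libraries moved it between -0.25 and 0.18. Its residual SD was 0.38 on the log2 scale, and 81.7% of the 2830 genes with a mean within 2-fold of that of ASB12 had a smaller one. At this spread a difference of the size seen in ASB15 could not be told from none in ASB12.

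ASB14 ran from 2200 to 2427 in hrLuc and from 2074 to 2569 in S100a1, with a log2 fold change of 0.04 ± 0.09 (SE). It overlaps APPL1, an endosomal adaptor, on chromosome 13. Both genes were lowest in S100a1 replicate 1 (ASB14 2074, APPL1 1714) and highest in S100a1 replicate 4 (ASB14 2569, APPL1 2089). In S100a1 replicate 3, however, ASB14 was almost as high, at 2567, with APPL1 at 2024. The other rows of ASB14, which share 1 set of values, had a mean of 1133 over the 7 libraries against 2369 in the row used, and the log2 ratio of their group means was 0.15 against 0.05. The part of shared reads in these values was not tested.

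Rows of other transcripts gave close values for the remaining genes. The 10 rows of ASB15 held 5 distinct sets of values, with log2 ratios of the group means from 0.37 to 0.41. Among the 7 rows of ASB4 the row used had a log2 ratio of 0.26, and in the others it lay between 0.22 and 0.31. The smallest of these was that of the row with the lowest mean, 2899 counts against 6118 in the row used. The pair of ASB2 rows had ratios of 0.15 and 0.14. Rows of a gene share reads, so they are not separate measurements.

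The log2 fold change was above 0 in 8 of the 9 genes, a share that was 43.5% over all genes tested, and in 9 of them after quantile normalization or median centring and 7 after centring on the cardiomyocyte markers. ASB10, and under the last scaling ASB12 as well, were the exceptions. The median over the 9 genes was 0.15, beside -0.02 over all genes tested. The lowest of the 7 libraries was an hrLuc library in 7 of the 9 genes (40.5% of all genes), and the highest was an S100a1 library in 7 of the 9 (49.6% of all genes). The counts and the median come from the contrast that was known when the set was chosen, so they are not evidence about the set. The genes did not share 1 extreme library. In hrLuc replicate 1, ASB2, ASB4 and ASB18 had their lowest value, whereas ASB15, ASB8, ASB11 and ASB12 had theirs in hrLuc replicate 2. The highest value was in S100a1 replicate 4 for ASB15, ASB4 and ASB14 and in S100a1 replicate 1 for ASB2 and ASB10. ASB8 and ASB12 were highest in hrLuc replicate 3.

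**Figure D2:**
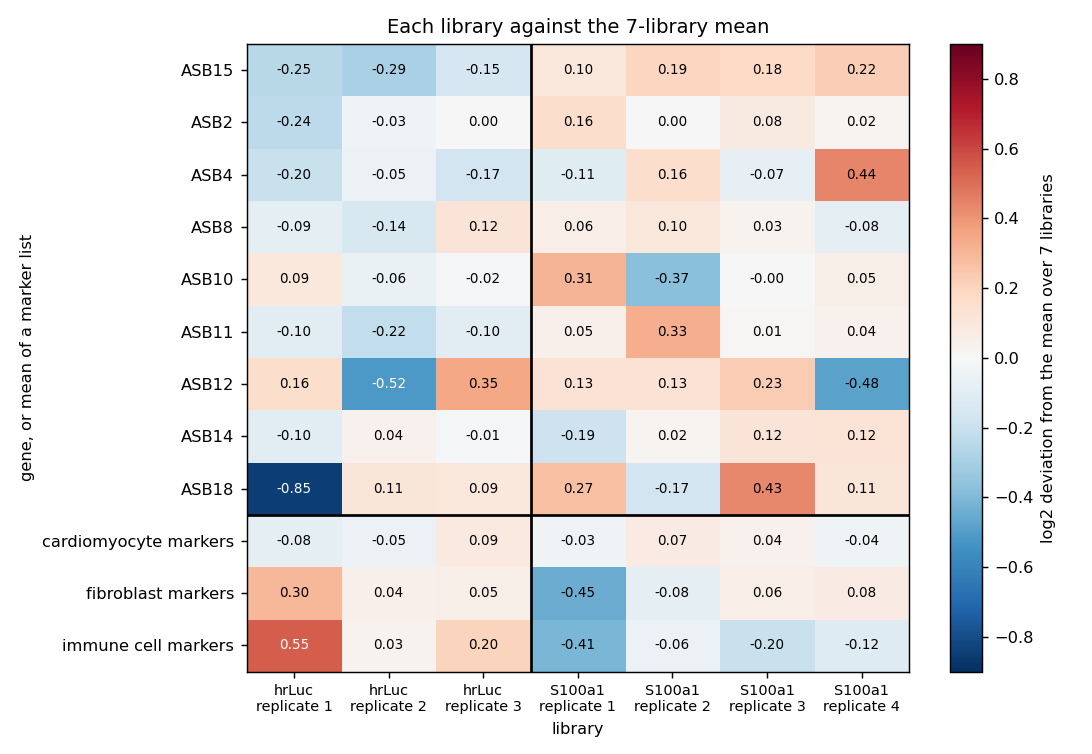
Deviation of each library (columns) from the mean over the 7 libraries, on the log2 scale, for the 9 ASB genes and, below the line, for the mean of 3 marker lists. Red is above and blue below that mean. ASB15 is below its mean in all 3 hrLuc libraries (-0.29 to -0.15) and above it in all 4 S100a1 libraries (0.10 to 0.22), and the deviation of -0.85 in hrLuc replicate 1 stands out for ASB18.

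The muscle content of the libraries was compared beside these values. The mean log2 deviation of the cardiomyocyte markers lay between -0.08 and 0.09 over the 7 libraries, and 6 of the 13 had a log2 fold change above 0. Centred on these markers, the log2 fold change was 0.38 for ASB15, 0.13 for ASB2, 0.22 for ASB11 and 0.22 for ASB4. Fast skeletal muscle markers, 9 of 9 matched, summed to 183 to 405 in hrLuc and 185 to 257 in S100a1. Of the 6 tested 0 were above 0, with a median of -0.14. Reads per library ran from 1 to 2 for the fast troponin gene TNNT3 and from 72 to 165 for MYBPC2. Fibroblast markers (1 of 9 above 0) summed to 132108 to 152854 in hrLuc and 85067 to 137555 in S100a1. Immune cell markers (3 of 9 tested above 0) summed to 6516 to 9023 in hrLuc and 4851 to 7303 in S100a1. Smooth muscle and pericyte markers (1 of 7 above 0) had a median log2 fold change of -0.34, endothelial markers (1 of 8) of -0.06, atrial markers (4 of 9) of -0.06 and adipocyte markers (3 of 4 tested) of 0.16. No marker was at 0 in every library. At an adjusted p under 0.05, 0 of 65 tested markers passed in limma, edgeR or limma-voom. In limma 12 of the 65 had an unadjusted p under 0.05, beside 8.26% of all genes. A log2 fold change above 0 was found in 19 of the 65, beside 43.5% of all genes. DESeq2 called 3 as lower in S100a1, the T cell surface gene CD5, the mast cell gene KIT and the atrial potassium channel gene KCNA5. The part of these other cell types in the values of the ASB genes was not tested.

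The other 9 ASB genes were set beside these values, and they were tested. They are what remained of the family when the set was chosen with this contrast known. A difference between the set and the others is therefore not evidence about the set. Of the 8 with enough reads 0 passed in limma, edgeR, limma-voom or DESeq2. A log2 fold change above 0 was found in 6 (43.5% over all genes), with a median of 0.10. In limma 1 had an unadjusted p under 0.05, beside 8.26% of all genes. That 1 gene was ASB13, which targets the transcription factor SNAI2 in human cells. It was at 563 ± 22.5 (SD, n = 3) in the hrLuc group and 462 ± 59.8 (SD, n = 4) in the S100a1 group. Every S100a1 library was below every hrLuc library, as in 5.31% of all genes. The log2 fold change of ASB13 was -0.29 ± 0.11 (SE, adjusted p = 0.568, limma). ASB9, which binds creatine kinase in human cells and lies next to ASB11 on chromosome X, was at 0.29 ± 0.18 (SE). ASB16 was at 0.20 ± 0.16. ASB5, first described in the growth of collateral arteries in the rabbit, was at 0.14 ± 0.08, and its highest library, S100a1 replicate 2, was also the highest for ASB9 and ASB11. ASB3 was at 0.14 ± 0.07, with every S100a1 library above every hrLuc library (3.96% of all genes). ASB7 was at 0.06 ± 0.08, ASB6 at 0.00 ± 0.11 and ASB1 at -0.15 ± 0.17. Single libraries moved several of these values. ASB16 was at 0.04 without hrLuc replicate 1, ASB7 at 0.02 without hrLuc replicate 3 and ASB1 at 0.02 without S100a1 replicate 4. Without S100a1 replicate 2, ASB9 was at 0.16 and ASB5 at 0.09. The adjusted p of these 8 genes was at least 0.568 in limma. ASB17, a testis gene, had at most 11 reads in a library and was not tested.

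**Figure D3:**
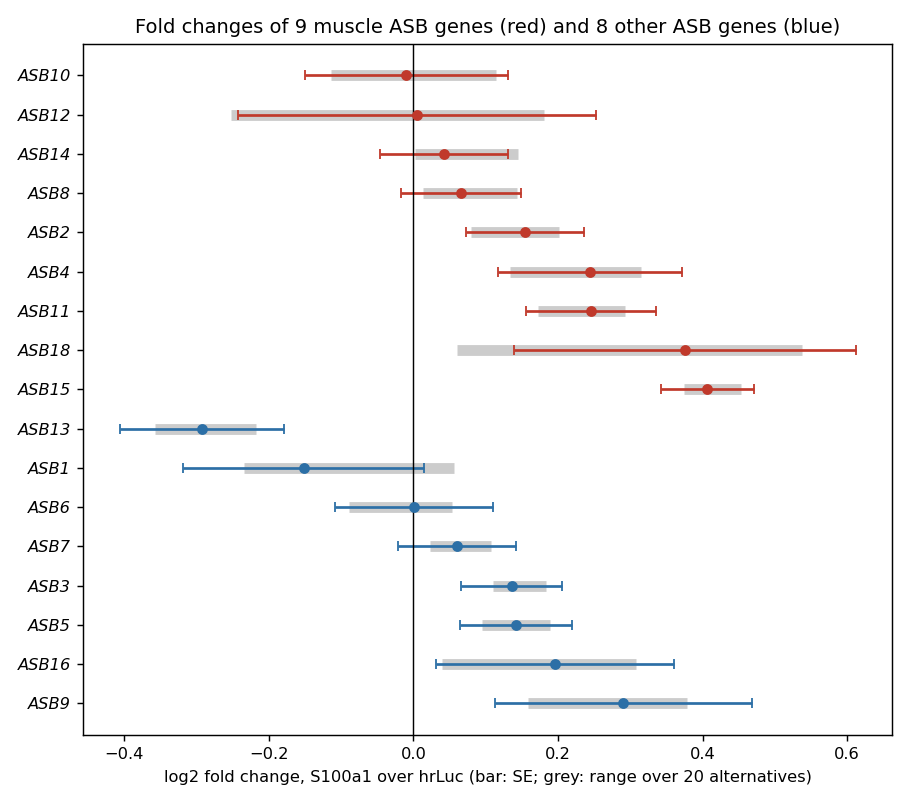
Log2 fold change of S100a1 over hrLuc (horizontal axis) for the 9 ASB genes of the set (red) and the 8 other ASB genes with enough reads (blue). Points are the values from the limma fit, bars their SE, and grey bands the range over 20 other processing settings. ASB15 stays between 0.37 and 0.45, whereas the band of ASB18 runs from 0.06 to 0.54 and those of ASB10 and ASB12 cross 0. The split into red and blue genes was made with this contrast known.

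On the chromosomes the set is scattered (Sscrofa11.1). ASB15 lies on chromosome 18 from 23826025 to 23881794 between LMOD2, a sarcomere gene, and NDUFA5, a gene of respiratory complex I. LMOD2 had groups that overlapped and a log2 fold change of 0.35 ± 0.14 (SE), and NDUFA5 was at -0.07 ± 0.11. ASB10 is on the same chromosome, from 6039253 to 6050335. ASB2 lies on chromosome 7 from 115210885 to 115258863, ASB4 on chromosome 9 from 75110367 to 75337619 and ASB8 on chromosome 5 from 78526105 to 78534810. ASB14 is on chromosome 13 from 39121461 to 39147490 and ASB18 on chromosome 15 from 136049744 to 136116084. ASB11 and ASB12 are both on chromosome X, at 11842855 to 11871040 and 50877158 to 50883739. Of the 9 genes, ASB4, ASB8 and ASB14 overlap another annotated gene, in the case of ASB8 the uncharacterized LOC100621110.

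No gene of the ligase that the adaptors plug into passed the test. Of 22 tested genes of the cullin 5 core and its NEDD8 cycle 0 passed in limma, edgeR, limma-voom or DESeq2. In limma 1 had an unadjusted p under 0.05, beside 8.26% of all genes. Of the 22, 10 were above 0 (43.5% over all genes), with a median of -0.02. The scaffold CUL5 was at 4484 ± 156 (SD, n = 3) in the hrLuc group and 4276 ± 202 (SD, n = 4) in the S100a1 group, with a log2 fold change of -0.07 ± 0.06 (SE). RNF7 was at 0.13 ± 0.11, elongin B (ELOB) at -0.05 ± 0.09 and elongin C (ELOC) at 0.01 ± 0.09. UBE2F had the smallest p of the list. Its count was 897, 974 and 959 in hrLuc and 848, 795, 806 and 820 in S100a1. Every S100a1 library was below every hrLuc library, as in 5.31% of all genes. The log2 fold change of UBE2F was -0.21 ± 0.07 (SE, adjusted p = 0.541, limma). DCUN1D2, a gene of a NEDD8 ligase family, was the highest of the list at 0.18 ± 0.09, and UBE2R2, a ubiquitin-conjugating enzyme, was at 0.09 ± 0.07. Without hrLuc replicate 1 they were at 0.12 and 0.04. Over 20 other processing settings DCUN1D2 ran from 0.12 to 0.37 and UBE2R2 from 0.04 to 0.14.

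Other SOCS box genes, which use the same elongin and cullin surface, did not pass the test. Of 21 tested 0 passed in limma, edgeR, limma-voom or DESeq2. In limma 1 had an unadjusted p under 0.05, beside 8.26% of all genes. Of the 21, 8 were above 0 (43.5% over all genes), with a median of -0.04. The lowest was NEURL2, an adaptor of muscle that acts on beta-catenin in the mouse. It was at 853 ± 125 (SD, n = 3) in the hrLuc group and 674 ± 79.8 (SD, n = 4) in the S100a1 group, with a log2 fold change of -0.33 ± 0.13 (SE, adjusted p = 0.567, limma) and overlapping groups. RAB40B was at -0.25 ± 0.13 (-0.16 without hrLuc replicate 2) and SOCS4 at -0.16 ± 0.08. Over 20 other processing settings RAB40B ran from -0.39 to -0.16 and SOCS4 from -0.21 to -0.05. The highest was PCMTD1, at 0.17 ± 0.09.

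Genes of proteins reported as ASB substrates or partners did not pass either. Of 13 tested 0 passed in limma, edgeR, limma-voom or DESeq2. In limma 1 had an unadjusted p under 0.05, beside 8.26% of all genes. Of the 13, 3 were above 0 (43.5% over all genes), with a median of -0.11. Filamins are targets of ASB2. FLNA, the filamin of non-muscle cells, was at 14799 ± 2920 (SD, n = 3) in the hrLuc group and 11935 ± 2307 (SD, n = 4) in the S100a1 group, and its log2 fold change was -0.31 ± 0.17 (SE), or -0.48 without hrLuc replicate 3. FLNC, the filamin of muscle, was at 0.15 ± 0.12, the highest of the list, with 1 high library, S100a1 replicate 1, which was also the highest for ASB2. FLNC was at 0.07 without hrLuc replicate 1 and at 0.09 without S100a1 replicate 1. DES, which encodes the intermediate filament protein desmin, was at -0.11 ± 0.14. The lowest was RIPK4, a kinase of epithelial differentiation, with 4 to 37 reads per library and a log2 fold change of -1.55 ± 0.49 (SE, adjusted p = 0.535, limma).

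**Figure D4:**
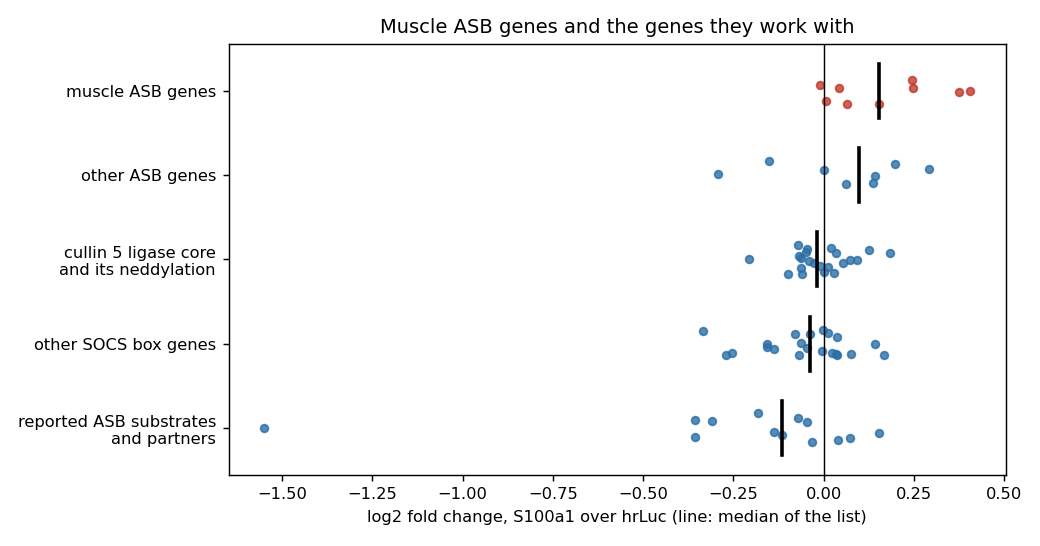
Log2 fold change of S100a1 over hrLuc (horizontal axis) for each tested gene of the muscle ASB set (red) and of 4 lists of related genes (blue), with the median of each list as a black line. Vertical scatter within a list has no meaning. The medians run from 0.15 in the muscle ASB set to -0.11 in the list of reported substrates and partners, whose point at -1.55 is RIPK4. The set and the lists were chosen with earlier results of these data known.

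Genes with library profiles most like those of ASB15 and ASB2 were sought by the root mean square difference of log2 values centred on each gene's mean over the 7 libraries. For ASB15, 2805 genes with a mean of at least 100 counts and at least its spread were compared. The closest were PLA2G4A, a cytosolic phospholipase, at a difference of 0.073, LARP6, an RNA-binding protein that binds collagen transcripts, at 0.077, and STEAP4, a metalloreductase, at 0.077. The SD of ASB15 over the 7 libraries was 0.22 on the same scale. PLA2G4A was at 1558 ± 131 (SD, n = 3) in the hrLuc group and 2110 ± 105 (SD, n = 4) in the S100a1 group. For ASB2, with an SD of 0.12, the closest of 7679 genes were SSH2, a phosphatase of the actin regulator cofilin, at 0.038, and the zinc finger genes ZNF566 at 0.043 and ZNF112 at 0.044. SSH2 was, like ASB2, lowest in hrLuc replicate 1 (6781) and highest in S100a1 replicate 1 (9242). The profiles include the difference between the groups, and closeness over 7 libraries is a description.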

How the data were processed

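The deposited table holds 63562 transcript rows with 7 columns of signal, in which each library's transcript reads had been scaled by a size factor of its own. Whole reads could be recovered, since 100% of the values in every column were multiples of what 1 read is worth (tolerance 0.01 read). The deposited log2 and ratio columns hold the authors' fold change, and the deposited p-value column their adjusted p. The submitters' processing notes name DESeq2 1.33.1, FastQC 0.11.8, R 4.1.2 and the build Sscrofa11.1. For the aligner, the counter and strand handling no name is given in the sources used here. The row with the highest mean was kept per gene. Genes reaching 10 normalized counts in 3 or more libraries were fitted with limma 3.58.1 (R 4.3.3, mean-variance trend) on log2(value + 0.5), groups from the titles, two-sided, with Benjamini-Hochberg adjustment over 15661 genes and 0.05 as threshold. All 9 ASB genes of the set passed this filter. On recovered reads, limma-voom, DESeq2 1.42.0 and edgeR 4.0.16 were alternatives, as were other pseudocounts, filters, scalings, transcript rows, a replicate block and each library left out. The fits were also run on simulated counts, and no result given here rests on that run. The titles give each library as a separate pig. Library numbers were 33, 39 and 45 in hrLuc and 57, 9, 15 and 21 in S100a1, so they run in blocks by group. Whether they mark an order of handling is not known here, and their part in the values was not tested. Lists of pathway and cell type genes had been written down in advance, but the ASB set and the lists were chosen with earlier results of these data known. Named genes were the set, all other ASB genes, the 3 of smallest p and both extremes of each other pathway list, and the 3 closest profiles to ASB15 and ASB2; 1 gene that the rule names is not reported here. Others were named after their values were seen, namely S100A1, overlapping and neighbouring genes, the ligase core, DES, the markers called by DESeq2 and the markers TTN, TNNT3 and MYBPC2.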

Additional observations from a re-analysis of the deposited data

Results flagged for a closer look

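In the S100a1 group of ASB11, the gap between the highest library, replicate 2, and the next was 0.896 of the range of the group, above Dixon's 95% critical value for 4 samples. In the S100a1 group of FLNC the gap between the highest library, replicate 1, and the next was 0.904 of the range, above the same value. FLNC was at 85484 in that library and between 70996 and 72381 in the other S100a1 libraries. Chance flags about 1 in 20 groups, and 28 genes were examined.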

How the results depend on the processing

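The log2 fold changes of the 9 ASB genes moved by less than the gene's residual SD in all 180 combinations of gene and alternative. For a left-out library or the replicate block this could not come out otherwise, because the residual SD includes that library's own deviation. The count of 180 is therefore no measure of stability, and the ranges are given instead. ASB15 ran from 0.37 to 0.45, ASB11 from 0.17 to 0.29, ASB4 from 0.13 to 0.32 and ASB18 from 0.06 to 0.54, whereas ASB10 and ASB12 changed sign. Over the whole table limma called 2 genes, 1 higher and 1 lower. The count was 1 with median centring (higher), 1 with centring on cardiomyocyte markers (lower), 3 with quantile normalization (2 higher), 0 with limma-voom and 89 with DESeq2 (54 higher), and it ran from 0 to 3 with each library left out. The cause was not tested. In the 4 pathway lists the count stayed at 0 under every alternative. With the replicate number as a block 0 genes were called, and ASB15 was at 0.39. Deviations of same-numbered libraries had correlations across genes of -0.02, -0.07 and 0.08, and those of differently numbered libraries ran from -0.16 to 0.19. With so few libraries these values cannot decide whether the numbers pair the pigs. Reads were few for ASB12 (89 to 194 per library) and RIPK4 (4 to 37 per library), and the part of depth in their spread was not tested.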
